A study of Mus musculus with 4 samples.

Results

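The 47 genes described here are the genes of G2 and mitosis, the last stages of the cell cycle, when a cell that has copied its DNA checks it, condenses it, parts it and divides. The members were chosen by symbol from a list of genes known for these stages, and all 47 were found among the 32285 genes of each count table. The data come from mouse hearts dissected at embryonic day E10.5 and profiled by droplet single-cell RNA sequencing, in which each transcript caught in a cell is counted once by its unique molecular identifier (UMI). Both genotypes carried floxed *Tie2* alleles (gene symbol *Tek*, a receptor of endothelial cells), and *Tie2-cko* hearts also carried a constitutive *Nfatc1* knock-in Cre, which acts in the endocardium, whereas control hearts (Tie2flfl) carried no Cre. There were 2 libraries of each genotype, numbered 5 and 7 for control and 6 and 8 for *Tie2-cko*, from somite-matched hearts of 1 litter of mixed 129 and C57/BL6 descent, so the presence of Cre and the loss of *Tie2* cannot be told apart. No label pairs a control with a *Tie2-cko* library, and p-values between genotypes measure the spread between these libraries alone.

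Entry into mitosis is driven by the kinase CDK1 with cyclin B, which phosphorylates many proteins and sets off condensation of chromosomes, breakdown of the nuclear envelope and building of the spindle. The spindle checkpoint then holds the cell until every kinetochore has bound microtubules, after which the anaphase-promoting complex marks cyclin B and securin for destruction and the cell divides. Many of these genes are silent in resting cells and are switched on together late in the cycle, in large part through CCAAT boxes and the cell-cycle homology region (CHR, TTTGAA) of their promoters. In the heart at midgestation cardiomyocytes (CMs) divide widely, with slow division known for the atrioventricular canal and outflow tract, while endocardial cells (EdCs), cushion mesenchymal cells (MCs), epicardial cells and primitive red blood cells also cycle.

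The promoters of the members are shown first because CCAAT and TTTGAA were more frequent in them than in all promoters, although not present in every one. RefSeq promoters of GRCm38.p6, reaching from 250 bases before to 50 bases after a transcription start, were found for 41 of the 47 genes (45 promoters). The 6 genes with no entry were *Cdca2*, *Dlgap5*, *Aurkb*, *Tpx2*, *Cdc25c* and *Smc4*. CCAAT on either strand was present in 34 of the 45 promoters (75.6%), against 37.4% of the 32851 promoters of the table. TTTGAA on either strand was present in 31 (68.9%), against 17.9% of all promoters, and both motifs together were in 25 (55.6%) against 6.95%. The variant TTCGAA was in 4 (8.89%) against 1.56%, and none of the 3 was found in 5 (11.1%) against 50.9%. The stretches below are the 150 bases before the start, 5′ to 3′ on the strand of the gene, with the 3 motifs in capitals, read on either strand, so that a motif of the other strand appears as its reverse complement. No motif overlapped another. They show the kinase of mitotic entry, the activator (*Cdc20*) and the ubiquitin enzyme (*Ube2c*) of the anaphase-promoting complex, 2 chromosome proteins, and *Cks1b* and *Anp32e*, which were among the 3 members with the lowest ratio between CMs inside and outside the mitotic range, each with its motifs, and then *Nusap1* and *Birc5*, which hold none of the 3 in these bases.
Cdk1 (chr10:69352913-69353062, minus strand): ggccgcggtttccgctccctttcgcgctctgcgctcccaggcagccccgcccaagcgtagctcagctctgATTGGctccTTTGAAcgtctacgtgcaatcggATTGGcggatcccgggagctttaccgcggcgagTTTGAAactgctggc
Cdc20 (chr4:118437344-118437493, minus strand): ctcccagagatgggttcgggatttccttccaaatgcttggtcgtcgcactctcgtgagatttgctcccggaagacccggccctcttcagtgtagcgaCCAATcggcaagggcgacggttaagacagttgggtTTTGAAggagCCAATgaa
Ube2c (chr2:164769779-164769928, plus strand): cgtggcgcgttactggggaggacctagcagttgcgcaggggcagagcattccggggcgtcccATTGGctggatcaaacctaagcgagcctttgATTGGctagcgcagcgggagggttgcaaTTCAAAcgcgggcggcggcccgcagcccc
Top2a (chr11:99024190-99024339, minus strand): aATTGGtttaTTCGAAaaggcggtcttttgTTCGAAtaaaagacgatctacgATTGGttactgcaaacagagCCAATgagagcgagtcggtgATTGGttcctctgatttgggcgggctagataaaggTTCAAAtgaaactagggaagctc
Mki67 (chr7:135716380-135716529, minus strand): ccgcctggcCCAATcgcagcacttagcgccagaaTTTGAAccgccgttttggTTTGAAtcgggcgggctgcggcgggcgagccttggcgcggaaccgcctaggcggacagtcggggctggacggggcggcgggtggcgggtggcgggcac
Cks1b (chr3:89418292-89418441, minus strand): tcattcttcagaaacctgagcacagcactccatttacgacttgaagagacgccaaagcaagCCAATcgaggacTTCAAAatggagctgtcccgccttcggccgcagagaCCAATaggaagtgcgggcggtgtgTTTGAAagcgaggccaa
Anp32e (chr3:95929107-95929256, plus strand): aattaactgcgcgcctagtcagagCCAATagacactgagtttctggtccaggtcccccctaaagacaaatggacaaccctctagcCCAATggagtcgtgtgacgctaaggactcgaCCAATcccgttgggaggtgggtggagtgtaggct
Nusap1 (chr2:119618148-119618297, plus strand): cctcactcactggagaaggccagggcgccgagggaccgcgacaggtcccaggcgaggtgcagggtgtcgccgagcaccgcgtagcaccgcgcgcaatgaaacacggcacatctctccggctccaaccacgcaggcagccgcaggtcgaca
Birc5 (chr11:117849087-117849236, plus strand): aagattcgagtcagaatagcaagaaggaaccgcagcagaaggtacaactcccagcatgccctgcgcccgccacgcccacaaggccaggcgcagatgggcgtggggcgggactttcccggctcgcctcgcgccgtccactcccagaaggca
These letters are a description of the sequence, and nothing on the binding of a factor was measured.

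The 4 libraries kept between 5684 and 10097 cells, 33419 in all, with a median of 14878 to 25875 UMIs per cell. *Tie2-cko* library 6 was the deepest and held the fewest cells. Libraries 5 and 6 also held foregut mesenchyme (537 and 567 cells), of which libraries 7 and 8 held 2 and 1, and any 2 libraries shared 29 to 62 cell barcodes. As a check of the labels, *Tek* in EdCs was at 0.880 and 1.28 UMIs per 10000 in controls, against 0.244 and 0.222 with *Tie2* deleted. In chamber EdCs the log2 fold change of *Tek* was -2.54 (SE 0.16) with an adjusted p of 0.00192 in edgeR's quasi-likelihood test, and over all EdCs it was -2.19 (SE 0.19) with an adjusted p of 0.0727. Where the counted tags of *Tek* lie in relation to the floxed part is not given in the sources used here. Cells were clustered without the members and without other cell cycle genes, and clusters were named from marker lists. CMs carried *Tnnt2* and *Ttn*, and their regions were named from further markers as ventricular CMs with low *Nppa*, trabecular ventricular CMs (high *Nppa*), atrial, sinus venosus, atrioventricular canal and outflow tract CMs.

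Whether a cell was in G2 or mitosis was read from the summed members. Each cell with at least 5000 UMIs was thinned to 5000, so that all cells had the same depth (28414 cells remained), and a cell with 25 or more member UMIs was put in the mitotic range. The cut marks a range on a continuous scale and not a kind of cell. Of the EdCs, 27 to 117 per library lay between 20 and 29 member UMIs, and of the CMs 229 to 586. In EdCs the median cell held 9 to 13 member UMIs and the highest held 97 to 130. Before thinning, cells in the range were the richer in UMIs. In EdCs of control library 5 they held a median of 20179 UMIs and the other cells 13355.

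**Figure D1:**
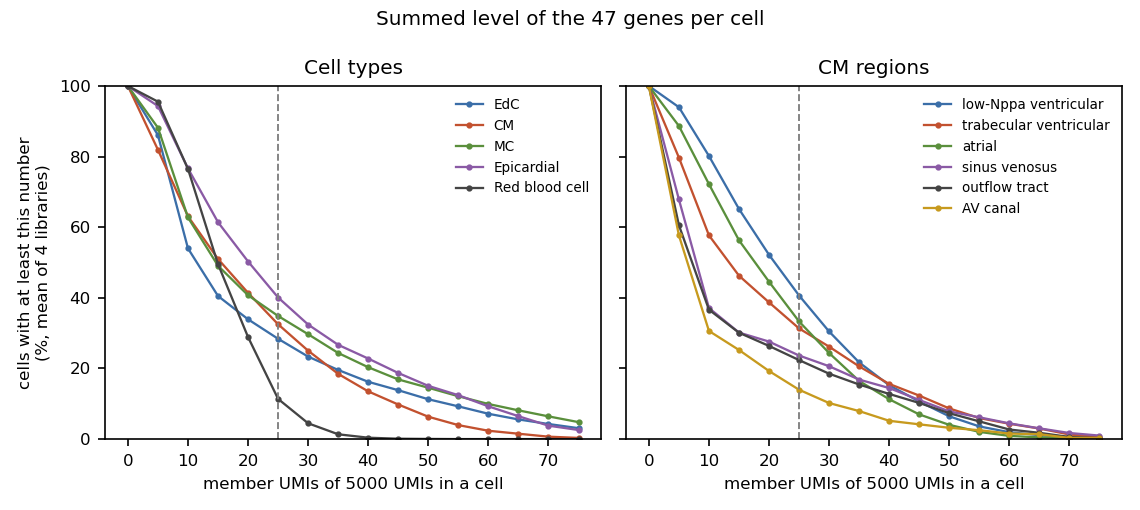
Share of cells (percent, mean of the 4 libraries) with at least the number of member UMIs on the horizontal axis out of 5000, with 1 curve per cell type on the left and per CM region on the right and a dashed line at the cut of 25. The curves of atrioventricular canal and outflow tract CMs drop at once (34.1% to 52.1% of canal cells held under 5), while that of red blood cells, whose median cell held 13 to 15, is close to 0 from 40 on (0.00% to 0.974% of cells).

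The members did not mark the range equally. For each gene the range was set by the other 46, and its level in cells inside was divided by that outside. In CMs the ratio ran from 1.37 for *Anp32e*, which removes the histone variant H2A.Z from chromatin, to 9.53 for *Cenpe*, the kinesin that carries chromosomes to the metaphase plate. *Cenpe* stood at 1.28 UMIs per 10000 inside and 0.134 outside, and its ratio was between 7.76 and 12 in the 4 libraries. *Anp32e* stood at 2.01 inside and 1.46 outside, with 1.29 to 1.46 by library. The library ranges of these genes were far apart.

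Besides *Anp32e*, the lowest ratios in CMs were those of *Tmpo* (a lamina-associated protein, 1.79), *Cks1b* (a small CDK-binding subunit that also serves the G1 to S transition, 1.79) and *Tubb4b* (a beta-tubulin, 2.01). After *Cenpe*, the highest were those of *Kif2c* (the microtubule-depolymerizing kinesin MCAK, 9.43), *Nek2* (a centrosome kinase, 8.50), *Nusap1* (a spindle microtubule binder, 8.04) and *Cdc20* (the activator of the anaphase-promoting complex, APC/C, 7.70). *Ube2c*, the APC/C's ubiquitin-conjugating enzyme, stood at 10.6 UMIs per 10000 inside and 2.63 outside. The median ratio over the 47 genes was 4.73 in CMs, 4.52 in epicardial cells, 6.89 in EdCs and 6.89 in MCs. *Nusap1* had the highest ratio in 3 of these 4 types, with 17.3 in EdCs, 12.7 in epicardial cells and 24.5 in MCs. In CMs the median ratio was 4.46 for the 30 genes with TTTGAA in a promoter and 4.69 for the 11 without it.

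**Figure D2:**
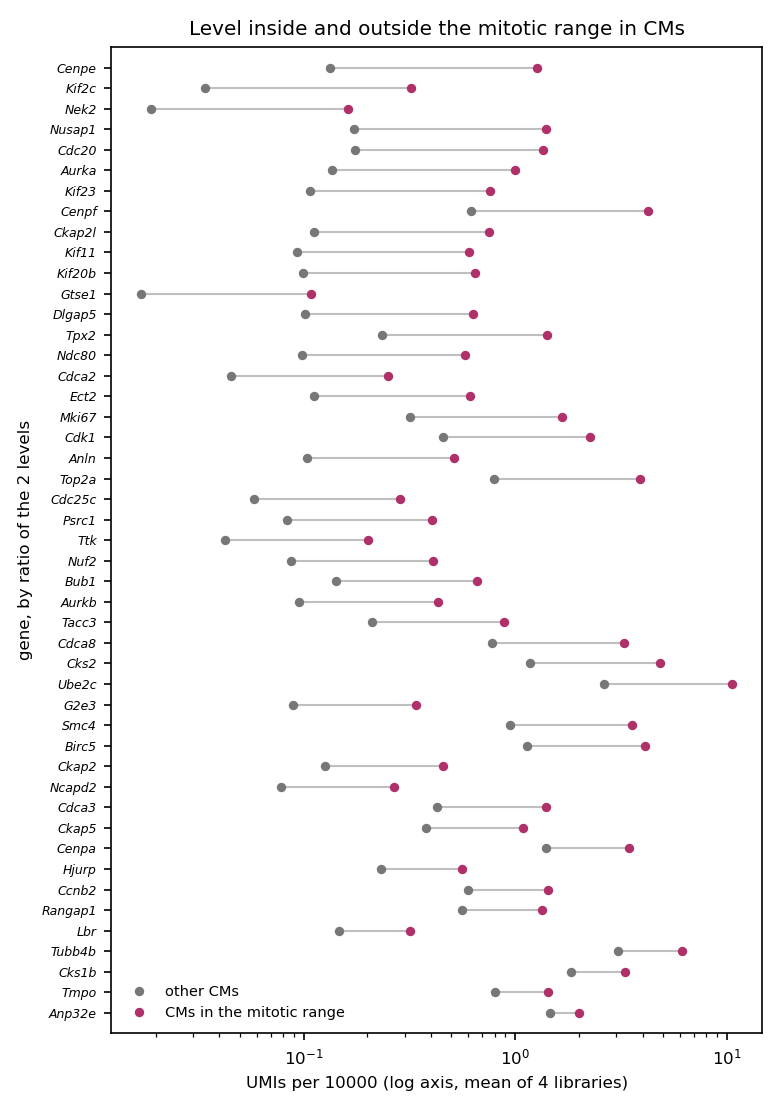
Level of each of the 47 members in UMIs per 10000 (log axis, mean of the 4 libraries) in CMs inside the mitotic range and in the other CMs, ordered by their ratio, with the range set by the other 46 members. The line between the points is longest for *Cenpe* (1.28 against 0.134) and shortest for *Anp32e* (2.01 against 1.46).

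EdCs had a lower share in the mitotic range than MCs and epicardial cells in each library. Epicardial cells had a higher share than CMs and MCs on average but not in every library. Shares are given in the order control 5, control 7, *Tie2-cko* 6, *Tie2-cko* 8. They were 30.9, 29.8, 26.2 and 26.8% of EdCs, 30.4, 32.9, 36.3 and 30.4% of CMs and 32.0, 35.4, 39.5 and 32.6% of MCs. In epicardial cells they were 40.4, 46.2, 31.8 and 42.0%. In the same order, EdCs differed from MCs by -1.15, -5.57, -13.3 and -5.83 percentage points. From epicardial cells they differed by -9.52, -16.4, -5.60 and -15.3 points. These differences of EdCs from MCs and epicardial cells were not tested. CMs exceeded EdCs by 4.11 percentage points (SD 4.39 over the 4 libraries) and in 3 of 4 libraries, and the exact permutation test within libraries gave a two-sided p of 0.25, where 4 libraries cannot go below 0.125. Epicardial cells exceeded CMs by 7.59 points (SD 8.18) in 3 of 4 libraries (exact p = 0.25), library 6 going the other way. Neither the difference of CMs from EdCs nor that of epicardial cells from CMs exceeded the spread between libraries. Epicardial cells exceeded CMs in 4 of 4 libraries at cuts of 15 (10.4 points, SD 5.85) and 40 (9.29 points, SD 2.74). They exceeded MCs by 12.3 points at a cut of 15 (4 of 4 libraries) and 2.46 points at 40 (3 of 4). At a cut of 40 the difference of CMs from EdCs was -2.71 points, since CMs held more cells between 25 and 39 (16.3% to 21.8%) than EdCs (10.0% to 13.2%).

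Other cells of the dissections lay higher and lower. A cluster led by *Prrx1*, *Gsc* and *Dlx5* (cluster 10) had 6 of the 8 MC markers but was not named, because *Postn* was below the level asked of an MC cluster, a condition added after the clusters were seen. It had 55.2% to 57.8% of its cells in the range in all libraries. Cluster 15, led by *Lhx2* and *Shisa3* and left out of MCs in the same way, had 40.1, 52, 44.4 and 41.3%, and macrophage or megakaryocyte cells had 47.8% to 69.0%. Some of these shares rest on few cells. Control 7 held 25 cells of cluster 15. Macrophage or megakaryocyte cells numbered 251 and 26 in controls 5 and 7 and 144 and 35 in *Tie2-cko* 6 and 8. The lowest shares were in a cluster of 114 cells led by *Prlr*, *Foxe1*, *Pax8* and *Hhex*, with 1 of 22, 0 of 4, 1 of 24 and 0 of 51 cells. Counting error alone allows up to 6.98% for the last of these (exact Clopper-Pearson 95% interval). Its median cell held 5 to 6.5 member UMIs of 5000, a level below which no statement on cycling is made here.

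**Figure D3:**
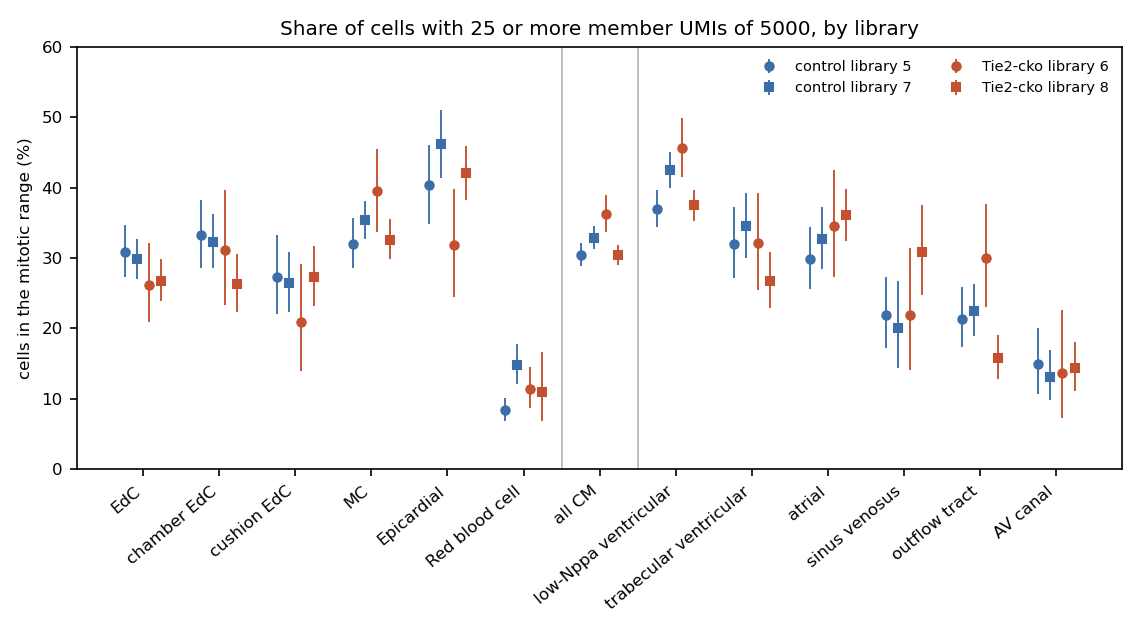
Percent of cells in the mitotic range (at least 25 member UMIs of 5000), 1 point per library (controls 5 and 7 in blue, *Tie2-cko* 6 and 8 in red), with bars for the 95% Clopper-Pearson interval of each library. Atrioventricular canal CMs (13.1% to 14.9%) lie below every other CM region in each library, and red blood cells lie at 8.38% to 14.8%.

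Red blood cells, which are filled with haemoglobin transcripts, were measured with and without these. With all UMIs counted, 8.38, 14.8, 11.4 and 11% of them were in the range. When the UMIs of 8 haemoglobin genes were left out before thinning, an alternative chosen after these values were seen, the shares were 54.5, 63.3, 57.9 and 62.4%. Taking UMIs out of the total raises a share per UMI by construction, and whether haemoglobin accounts for the low share was not tested. *Mki67*, which coats mitotic chromosomes and is widely used as a mark of cycling, was at 2.96, 3.53, 3.01 and 2.87 UMIs per 10000 in red blood cells even with haemoglobin counted, against 1.29, 0.931, 1.05 and 0.932 in EdCs. *Lbr*, the lamin B receptor, was at 0.445, 0.682, 0.435 and 0.512 in red blood cells and 0.408, 0.423, 0.361 and 0.392 in EdCs. These 2 genes were the only members whose mean level was highest in red blood cells among EdCs, CMs, MCs, epicardial and red blood cells. In contrast, 32 members had their lowest level there, with haemoglobin UMIs in the total, which lowers each level by construction. Among them were *Psrc1* (0.0210 to 0.0362, a microtubule-binding protein), *Anln* (0.0775 to 0.0876, an actin binder of the cleavage furrow) and *Ect2* (0.0639 to 0.106, the activator of RhoA at the furrow). Levels of single genes without haemoglobin are not given here. Of the other members, 28 had their highest level in epicardial cells, 13 in MCs, 3 in EdCs and 1, *Ube2c*, in CMs.

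Between CMs and EdCs the members differed in both directions, as genes in general did. In the test on counts summed per library, 26 of the 47 were higher in CMs (39.8% of all genes tested were) and 12 were lower (36.6% of all genes), with a median log2 fold change of 0.19 for the members and 0.03 for all 15658 genes. Summed counts weigh a cell by its UMIs, whereas the levels quoted are means over cells. With each cell thinned to 5000 UMIs, 20 members were higher and 15 lower (4285 and 4483 of 12238 genes), and their median was 0.10.

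Among the genes of mitotic entry, *Cdk1* was lower in CMs by the fit, with a log2 fold change of -0.27 (SE 0.06, adjusted p 0.00103). *Cdk1* was at 0.806, 1.12, 1.06 and 1.04 UMIs per 10000 in CMs and at 1.34, 1.96, 1.33 and 1.59 in EdCs, and the types did not overlap. Its partners were higher in CMs, by 0.47 for *Ccnb2* (cyclin B2), 0.71 for *Cdc25c* (the phosphatase that activates CDK1), 0.63 for *Cks2* and 0.34 for *Cks1b*. *Cdca3*, an adaptor that clears the kinase WEE1, was also higher (0.63), as was *Gtse1*, a microtubule-binding protein of G2 (0.44), while *G2e3*, a ubiquitin ligase, was lower (-0.40).

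The APC/C enzyme *Ube2c* showed one of the widest differences. It was at 4.30, 4.95, 5.03 and 4.73 UMIs per 10000 in CMs and 2.80, 3.28, 1.98 and 3.15 in EdCs, with a log2 fold change of 0.99 (SE 0.08, adjusted p 6.08e-08). *Cdc20* did not pass the test (0.08, SE 0.08, adjusted p 0.413). Of the checkpoint kinases *Bub1* was higher in CMs by the fit (0.23) and *Ttk* lower (-0.53). The mean level of *Bub1* over cells was 0.315 in CMs and 0.335 in EdCs.

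Spindle genes went both ways. *Psrc1* had the largest difference of all members, at 0.184, 0.187, 0.222 and 0.181 in CMs and 0.108, 0.0876, 0.0663 and 0.0882 in EdCs (log2 fold change 1.43, SE 0.09, adjusted p 5.41e-09). *Aurka*, the centrosome kinase, was higher in CMs (0.47) and *Tpx2*, which activates it on the spindle, was lower (-0.58). *Nek2* (0.72), *Tubb4b* (0.42), *Ckap2* (0.29), *Ckap5* (0.26), *Ckap2l* (0.23) and the bipolar kinesin *Kif11* (0.19) were higher, while *Kif2c* (-0.49) and *Kif20b* (-0.36, a kinesin of late division) were lower. *Nusap1*, *Tacc3* (a clathrin-bound spindle protein) and *Dlgap5* (a kinetochore-fibre protein) did not pass the test.

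Centromere genes were likewise divided. *Cenpa*, the histone H3 variant that founds the centromere, was higher in CMs (0.86, SE 0.07), and *Hjurp*, which deposits it, was lower (-0.45, SE 0.05). *Cenpf* (0.54) and *Nuf2* (0.33) were higher, *Cenpe* lower (-0.41), and *Ndc80*, the partner of NUF2, did not pass the test (0.02). Of the chromosomal passenger complex, *Cdca8* (borealin, 0.64) and *Birc5* (survivin, 0.35) were higher and their kinase *Aurkb* was lower (-0.39). Among genes of division itself *Ect2* (0.95) and *Anln* (0.17) were higher and *Kif23*, of centralspindlin, did not pass. Among chromosome and envelope genes *Anp32e* (0.45), *Smc4* of condensin (0.14) and *Rangap1* (0.71, of nuclear transport) were higher, *Mki67* (-0.18), *Lbr* (-0.57) and *Tmpo* (-0.50) were lower, and *Top2a*, *Ncapd2* of condensin and *Cdca2*, which brings phosphatase to chromatin in anaphase, did not pass. With thinned cells the sign of *Smc4* turned.

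**Figure D4:**
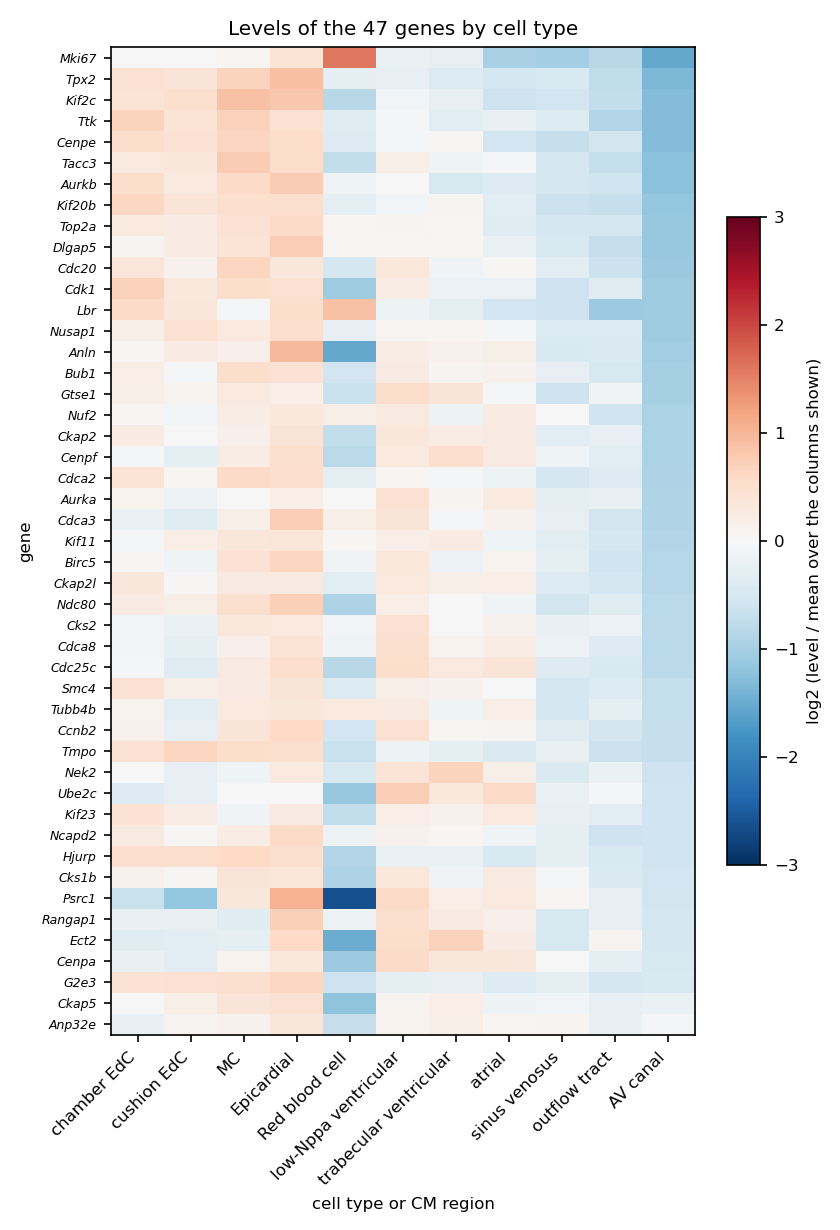
Heat map of the 47 members (rows) by cell type and CM region (columns), coloured by the log2 of the mean level (over the 4 libraries) divided by the gene's mean over the columns shown. Among the CM regions the atrioventricular canal has the lowest level of 42 of the 47 genes, and red blood cells have the highest level of *Mki67*.

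Within the endocardium, chamber EdCs held more of the members' transcripts than cushion EdCs. The mitotic range held 33.2, 32.3, 31.1 and 26.3% of chamber EdCs and 27.3, 26.5, 20.8 and 27.2% of cushion EdCs, a difference of 5.26 points (SD 4.61, higher in 3 of 4 libraries, exact p = 0.25), and at a cut of 40 it was -0.50 points. In the test over genes 31 members were higher in chamber EdCs (23.5% of all genes) and 1, *Anp32e*, was lower (23.1% of all genes), with a median log2 fold change of 0.29 for the members and 0.01 for all genes. The count was 13 with thinned cells (1673 of 10171 genes) and 20 with DESeq2 (1828 of 14747). The largest was again *Psrc1* (0.77, SE 0.15, adjusted p 0.000728), followed by *Aurka* (0.54), *Tubb4b* (0.54) and *Cdk1* (0.50, SE 0.06, adjusted p 1.25e-05). *Cdk1* was at 1.45, 2.26, 1.52 and 1.68 UMIs per 10000 in chamber and 1.16, 1.54, 1.11 and 1.49 in cushion EdCs, higher in the chamber in each library. *Nusap1*, *Kif11*, *Ckap5*, *Anln* and *Dlgap5* had values between -0.12 and -0.03 and did not pass. S phase genes went with them, with 31 of 43 higher and 2 lower.

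Among the CM regions the atrioventricular canal and the outflow tract had lower shares than the ventricle. The range held 14.9, 13.1, 13.6 and 14.3% of atrioventricular canal CMs and 36.0, 40.7, 42.4 and 35.2% of ventricular CMs. The difference was -24.6 points (SD 4.17) and lay in 1 direction in 4 of 4 libraries (exact p = 0.125, the smallest possible). This comparison and those of the outflow tract and sinus venosus were chosen after the shares had been seen. In outflow tract CMs the range held 21.4, 22.4, 30 and 15.7%, a difference from ventricular CMs of -16.2 points (SD 3.29, lower in 4 of 4 libraries, exact p = 0.125). At a cut of 40 it was -2.57 points (SD 6.57, lower in 3 of 4 libraries, exact p = 0.5), with 1 library 6.26 points higher. At the cut of 25 no library's share in either region reached that of its ventricular CMs. Both regions held many cells nearly without member UMIs. Under 5 of 5000 were held by 34.1% to 52.1% of atrioventricular canal CMs and 35.6% to 45.2% of outflow tract CMs. In the ventricle this share was 4.05% to 8.96% of low-*Nppa* and 18.72% to 24.55% of trabecular CMs.

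In the atrioventricular canal all 47 members were lower than in ventricular CMs, against 29.3% of all genes tested, with a median log2 fold change of -1.10. The median of all 14499 genes was 0.01. The list ran from *Aurka* (-1.36, SE 0.07, adjusted p 2.02e-09) to *Anp32e* (-0.36, SE 0.05, adjusted p 2.37e-05). *Aurka* was at 0.174, 0.214, 0.202 and 0.207 UMIs per 10000 in the canal and 0.430, 0.514, 0.581 and 0.507 in low-*Nppa* ventricular CMs. *Cdk1* was at 0.426, 0.532, 0.514 and 0.557 in the canal and 0.991, 1.46, 1.24 and 1.28 in those ventricular cells. For neither gene did the regions overlap. All 47 were also called with thinned cells, with DESeq2, without filter and without each library in turn.

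The genes that fell least in the canal were *Anp32e*, *G2e3* (-0.37), *Hjurp* (-0.54), *Ckap5* (-0.54, a microtubule polymerase) and *Tmpo* (-0.59). *Anp32e*, *Tmpo* and *Hjurp* also had low ratios between cells inside and outside the range. S phase genes were lower too, 43 of 43, with a median of -0.98, as were 46 of 51 further G2 and mitosis genes. In the outflow tract 46 members were lower (28.7% of all genes), with a median of -0.51, and *G2e3* was at -0.10 (adjusted p 0.200). There *Cdc25c* (-0.75), *Ttk* (-0.74), *Cdca3* (-0.73) and *Lbr* (-0.72) were lowest. The canal's difference was more than that of the outflow tract for *Aurka* (-0.52 in the outflow tract) and *Cdk1* (-0.44), although the difference between these 2 regions was not tested.

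In the sinus venosus 21.9, 20, 21.9 and 30.8% of CMs were in the range, against 29.9, 32.8, 34.6 and 36.0% of atrial CMs, -9.65 points (SD 3.73, lower in 4 of 4 libraries, exact p = 0.125). This order turned with the cut, since 9.14% to 18.8% of sinus venosus CMs held 40 or more member UMIs, and at a cut of 40 the difference was 3.17 points. Cells nearly without members were also common there (25.7% to 35.4% under 5). In the test over genes 28 members were lower (18.9% of all genes) and none higher, led by *Tubb4b* (-0.83), *Ube2c* (-0.83) and *Rangap1* (-0.80), while *Tmpo*, *Hjurp*, *Ckap5*, *G2e3* and *Kif2c* lay between -0.08 and -0.03 and did not pass.

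Atrial CMs lay 5.26 points below ventricular CMs (SD 4.17, lower in 3 of 4 libraries, exact p = 0.25). Of the members, 20 were lower in the atrium (20.3% of all genes) and 3 higher (23% of all genes), namely *Kif23* (0.21), *Nuf2* (0.17) and *Cks1b* (0.12). With thinned cells 9 were lower and 1 higher, where 1283 and 1498 of 10459 genes were. *Mki67* fell most (-0.60, SE 0.04, adjusted p 8.37e-10), at 0.577, 0.466, 0.583 and 0.50 UMIs per 10000 in the atrium against 0.980, 0.775, 1.04 and 0.814 in low-*Nppa* ventricular CMs. *Cenpe* (-0.42), *Kif2c* (-0.35) and *Top2a* (-0.33, the topoisomerase that untangles sister chromatids) followed. *Ube2c* (0.01), *Birc5* (-0.01) and *Cdc25c* (-0.01) had values near 0.

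In the ventricle the trabecular cells lay below the low-*Nppa* cells, and this difference depended on how the cells were parted. The shares were 32.0, 34.5, 32.1 and 26.8% in trabecular and 37.0, 42.5, 45.7 and 37.5% in low-*Nppa* CMs, -9.33 points (SD 3.68, lower in 4 of 4 libraries, exact p = 0.125). In the test 36 members were lower in trabecular CMs (26.2% of all genes) and 0 higher (27.6% of all genes), with a median of -0.27. *Aurkb* (-0.65, SE 0.06, adjusted p 2.34e-12), *Birc5* (-0.58), *Cdca3* (-0.52), *Cdk1* (-0.51) and *Cdc20* (-0.51) fell most, and *Nek2* (0.16), *Cenpf* (0.06), *Ckap5* (0.00) and *Ect2* (-0.02) did not pass.

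The low-*Nppa* cells were pooled from 2 clusters, and the smaller one (cluster 12) had 52.6, 58.8, 56.0 and 62.0% of its cells in the range, against 31.0, 37.0, 42.4 and 32.0% in the larger (cluster 0). With histone genes, which serve S phase, also kept out of the clustering, a choice made after cluster 12 was seen, the difference of trabecular from low-*Nppa* CMs was -5.22 points, with 25 members lower and 5 higher (3099 and 3106 of 13843 genes). At a cut of 40 it was 0.37 points. With the cell cycle genes kept among the clustering genes it was -54.0 points.

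The genotype comparison asks whether endocardial loss of *Tie2* went with a change in cycling of EdCs or of the CMs beside them. In EdCs both *Tie2-cko* libraries lay below both controls. The shares in the range were 30.9% (95% Clopper-Pearson interval 27.3 to 34.6) and 29.8% (27 to 32.7) in controls 5 and 7, and 26.2% (20.9 to 32.1) and 26.8% (23.9 to 29.8) in *Tie2-cko* 6 and 8. The means were 30.3% ± 0.752 and 26.5% ± 0.40 (SD, n = 2 each), a difference of -3.86 points, with an exact two-sided permutation p of 0.333, which is the smallest that 2 against 2 allows. The intervals of single libraries overlapped. The groups also overlapped at a cut of 40 (-1.83 points), with cells thinned to 10000 UMIs (-3.43) and with coarser clusters (-1.21). At the other end, 10.2% and 10.1% of control EdCs and 17.9% and 17.5% of *Tie2-cko* EdCs held under 5 member UMIs. A shallow cluster (cluster 6, median 1856 UMIs), best matched by the EdC list with 2 markers, was left unnamed and is not in these values. It held 583 and 399 cells in controls 5 and 7 and 360 and 243 in *Tie2-cko* 6 and 8. The EdCs numbered 656 and 1061 in these controls and 264 and 937 in *Tie2-cko*. Its bearing on the genotype difference was not tested. Chamber EdCs were at 33.2 and 32.3% in controls and 31.1 and 26.3% in *Tie2-cko*, with no overlap, and cushion EdCs at 27.3 and 26.5% and at 20.8 and 27.2%, which overlapped. No member was called in either, where 0.0086% of all genes in chamber and 0.0441% in cushion EdCs were called lower.

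No member passed the threshold between genotypes in EdCs, either by edgeR (1 of 47 with an unadjusted p under 0.05) or by DESeq2 (also 0, and 1 unadjusted). An unadjusted p under 0.05 was held by 621 of 12692 genes in edgeR and 290 of 14747 in DESeq2. Over all genes edgeR called none in either direction (0.00% of 12692). The members' log2 fold changes were negative for 41 and positive for 6, with a median of -0.14 beside 0.01 for all genes. Both *Tie2-cko* libraries lay below both controls for 20 members, against 16.5% of all genes, and above them for 1, *Ect2*, against 18.1%. S phase genes had the same lean, with 41 of 43 negative and a median of -0.19.

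*Cdc20* was at 0.719 and 0.749 UMIs per 10000 in control and 0.629 and 0.630 in *Tie2-cko* EdCs (-0.28, SE 0.12, adjusted p 0.959). *Cdca8* was at 1.36 and 1.26 against 1.09 and 1.05 (-0.31, SE 0.12). *Top2a* was at 2.54 and 2.54 against 2.21 and 2.32 (-0.12, SE 0.13). For these 3 genes the genotypes did not overlap. *Cdk1*, in contrast, was at 1.34 and 1.96 in control and 1.33 and 1.59 in *Tie2-cko* EdCs (-0.18, SE 0.17), *Mki67* at 1.29 and 0.931 against 1.05 and 0.932, and *Ube2c* at 2.80 and 3.28 against 1.98 and 3.15. For these the genotypes overlapped. The largest negative values were those of *Cdc25c* (-0.37, SE 0.17), *Kif2c* (-0.34, SE 0.15) and *Tubb4b* (-0.34, SE 0.16), and the largest positive one that of *Ect2* (0.13, SE 0.14).

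The result in EdCs depended on how the libraries were treated. With a term for libraries 5 and 6 against 7 and 8, which no label supports and which was known from earlier results of these data, edgeR called 6 members lower in *Tie2-cko* EdCs, *Tubb4b*, *Cdca8*, *Birc5*, *Cdc20*, *Kif2c* and *Cdca3*. In the same fit 400 of 12692 genes were called lower and 393 higher. Without *Tie2-cko* library 6 the median of the members was -0.08, and without library 8 it was -0.23, with no member called in either case.

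**Figure D5:**
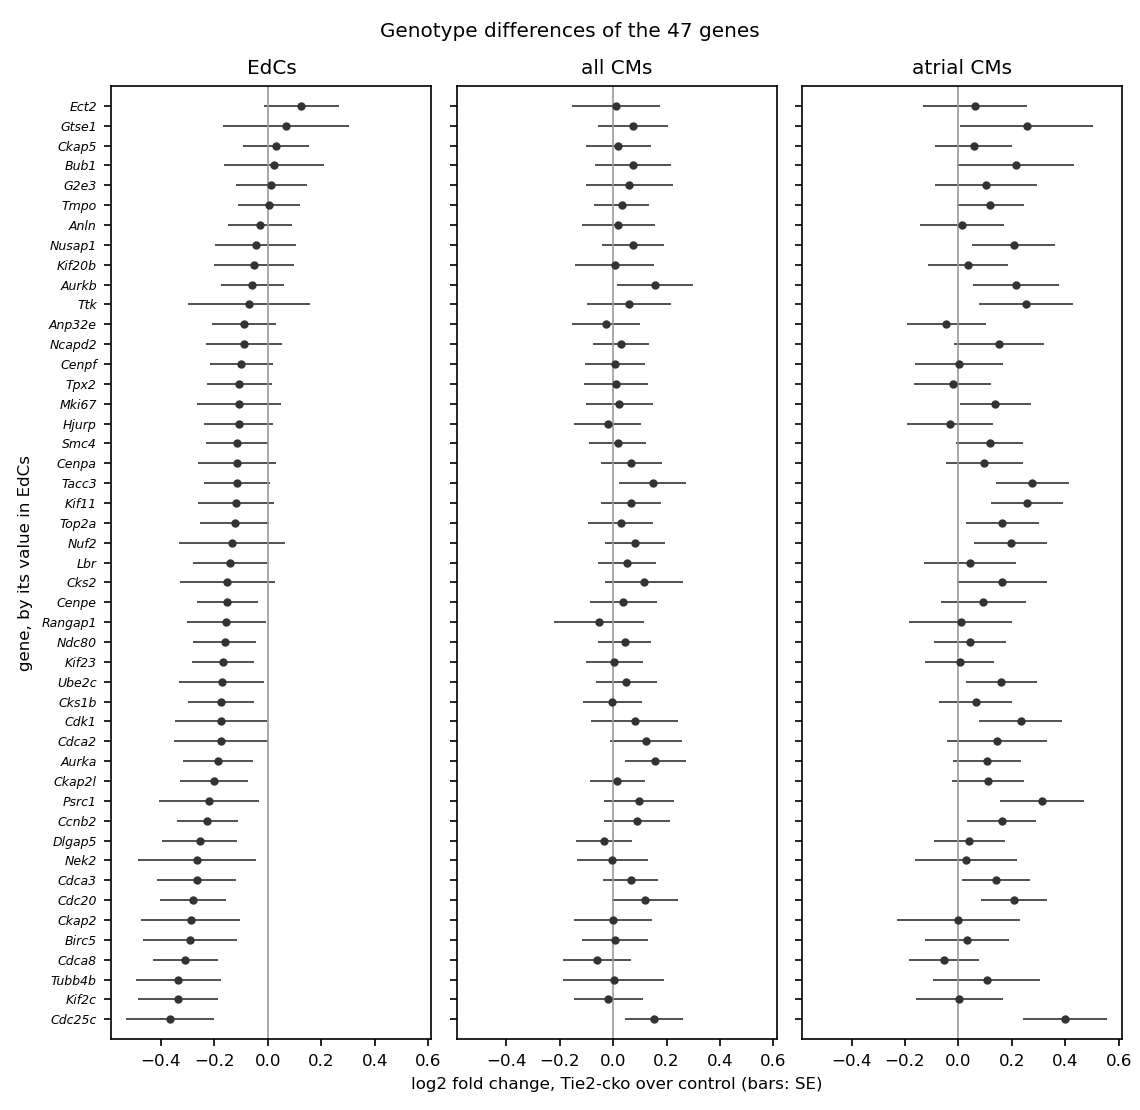
Log2 fold change (*Tie2-cko* over control, horizontal axis) of each of the 47 members (rows, ordered by the value in EdCs) in EdCs, all CMs and atrial CMs, with bars for 1 SE of the edgeR fit. In EdCs 41 members lie below 0, in all CMs 39 and in atrial CMs 42 lie above 0, and no member passed the threshold.

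In CMs the groups overlapped. Controls were at 30.4 and 32.9% and *Tie2-cko* libraries at 36.3 and 30.4%, a difference of 1.70 points with an exact p of 1. No member was called, and none had an unadjusted p under 0.05 in edgeR (62 of 15567 genes did). The median was 0.03, with 39 positive and 8 negative, and without control library 5 it was -0.02. Both *Tie2-cko* libraries lay above both controls for 4 members, *Aurka*, *Cdca3*, *Ndc80* and *Cdc25c*, against 8.77% of all genes, and below them for 0. The difference of the genotype effect between EdCs and CMs was -5.56 points in the shares (exact p = 0.333, the smallest possible). In the interaction test over genes no member was called (0.0192% of all genes were, as lower), 15 had an unadjusted p under 0.05, 44 of 47 were negative, and the median was -0.20. How many of all genes had an unadjusted p under 0.05 or a negative value is not given here. These member counts are therefore not set against a background. *Tubb4b* (-0.33, SE 0.08, adjusted p 0.273) and *Cdc25c* (-0.52, SE 0.14, adjusted p 0.335) had the smallest p-values. Without *Tie2-cko* library 8, 10 members were called lower in this test, with 187 of 15905 genes lower and 164 higher, and without any of the other libraries 0.

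By region, only atrial CMs had shares that did not overlap between genotypes, in the direction opposite to EdCs. The shares were 29.9 and 32.8% in control and 34.6 and 36.0% in *Tie2-cko* atrial CMs, a difference of 4.01 points with no overlap (exact p = 0.333). At a cut of 40 it was 0.93 points, with overlap (8.10 and 13.5% against 10.1 and 13.4%). No member was called, 42 were positive and 5 negative, with a median of 0.11 (32 positive and a median of 0.06 with thinned cells), and both *Tie2-cko* libraries lay above both controls for 17 members (11% of all genes). *Tacc3* (0.28, SE 0.14), *Kif11* (0.26, SE 0.13) and *Cdc25c* (0.40, SE 0.16) were among the highest. *Kif11* was at 0.209 and 0.229 UMIs per 10000 in control and 0.260 and 0.258 in *Tie2-cko* atrial CMs. The difference of the effect between EdCs and atrial CMs was -7.87 points. This pair was chosen after the values were seen, for shares that went opposite ways without overlap. Its exact permutation p of 0.333 was fixed by that choice.

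In the other regions the shares overlapped between genotypes. The differences were 1.83 points in low-*Nppa* ventricular, -3.83 in trabecular, -0.03 in atrioventricular canal, 0.98 in outflow tract and 5.39 in sinus venosus CMs, the last resting on *Tie2-cko* library 8 (0.91 points without it). In the outflow tract *Tie2-cko* libraries 6 and 8 were themselves far apart, at 30 and 15.7%. No member was called in any region. Counts of members with both *Tie2-cko* libraries above both controls were 19 in the canal (14.4% of all genes) and 11 in the sinus venosus (10.8%), and in trabecular CMs 8 were below (9.93%). Log2 fold changes were positive for 38 members in the canal, 37 in the sinus venosus and 30 in low-*Nppa* CMs. They were positive for 17 in trabecular and 16 in outflow tract CMs.

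MCs overlapped as well, at 32.0 and 35.4% in control and 39.5 and 32.6% in *Tie2-cko*, and no member was called. They were pooled from 2 clusters, and the larger (cluster 1) had shares of 32.8 and 35.7% against 45 and 33%. Its leading genes included *Twist1* and *Msx1*, both on the marker list of cushion EdCs, and *Twist1* was also on that of MCs. In epicardial cells the difference was -6.37 points, with overlap and with 1 library (*Tie2-cko* 6, 151 cells) at 31.8%, and without that library it was -1.25 points. Both *Tie2-cko* libraries lay below both controls for 7 members there (11.4% of all genes), and none was called, against 0.0335% of all genes called lower. In an epithelial cluster led by *Pax9* and *Pax1*, with 28 cells in library 6, *Tie2-cko* shares (50 and 45.7%) lay above controls (33.6 and 37.0%), with an exact permutation p of 0.333. This cluster was not among the planned comparisons. Its p is the smallest possible here and is fixed once the shares do not overlap.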

How the data were processed

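Dissociated E10.5 hearts were encapsulated on the 10x Genomics Chromium platform, 2 libraries of each genotype, which held 169361996 to 259775540 UMIs. The authors deposited unnormalized UMI counts per gene and barcode, made with Cell Ranger, version 6.1.2 by the file header (the methods name another version), on mm10 per the submitters' processing notes.

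Barcodes with at least 500 genes and 1000 UMIs and at most 10% mitochondrial UMIs were kept, and 0.8% per 1000 barcodes with the highest Scrublet scores (scanpy 1.11.5) were dropped as doublets. Cells were clustered in Seurat 5.3.0 (2000 variable genes of which 1976 remained once the members and other cell cycle genes were taken out, 30 components, resolution 0.8), and 3 clusters with median UMI counts under 0.333 of those of their libraries were left unnamed. The limits for naming types and regions were set after the clusters were seen, when *Postn* was also asked of MC clusters, which left out clusters 10 and 15, and *Nrg1* of EdC clusters, which left out none. The 114 cells of a further cluster, whose leading genes went against its list, were described by number only. Shares used cells thinned to 5000 UMIs with a fixed seed, and levels are means over all cells of a library. Intervals cover counting error only. Shares were compared by exact permutation of libraries. Counts summed per library and type were tested with edgeR 4.0.16 (TMM, filterByExpr, quasi-likelihood F-test, Benjamini-Hochberg over all genes, threshold 0.05), with the library as a term between types, and DESeq2 1.42.0 was the other tool. SE is the absolute log2 fold change over the square root of F. The steps were tested on simulated data. Other software was R 4.3.3, limma 3.58.1, Python 3.11.15, numpy 2.4.6, scipy 1.17.1, pandas 2.3.3 and matplotlib 3.10.9.

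The members and the lists (S phase genes, 43 of 44 tested, and further G2 and mitosis genes, 51 of 52) were chosen with earlier results of these data known. By the rule for named genes, members that passed a test were named, otherwise the 3 with the highest and the 3 with the lowest fold change, up to 4 whose libraries did not overlap, a set fixed by role and *Tek*. Genes that lead clusters were named after their values were seen. Reads of near copies, such as those of the tubulin *Tubb4b*, may be split between genes. Alternatives were other cuts and depths, a core list of 24 members (cut 12), a stricter filter (1500 genes, 5% mitochondrial), doublets kept, other clusterings, no filter on low counts, other size factors, and each library left out.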

Additional observations from a re-analysis of the deposited data

Results flagged for a closer look

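The share of EdCs in the mitotic range differed between genotypes by -3.86 percentage points and that of atrial CMs by 4.01 points, both *Tie2-cko* libraries moving one way in EdCs and the other way in atrial CMs. The difference between these effects was -7.87 points. This pair of types was chosen after the values were seen, because its shares went opposite ways without overlap. The exact permutation p of 0.333, the smallest that 2 libraries against 2 allow, was fixed by that choice and tests nothing further. The shares are made of these same members, so counts of single members are not separate support. Both *Tie2-cko* libraries lay below both controls for 20 members in EdCs, against 16.5% of all genes. They lay above them for 17 in atrial CMs, against 11% of all genes. The latter count was 19 in atrioventricular canal CMs (14.4% of all genes), whose shares overlapped between genotypes. Whether the effect on these counts differs between EdCs and atrial CMs was not tested, and no member was called in either. The libraries were of unequal depth, with median kept cells of 17433 and 14878 UMIs in controls and 25875 and 16961 in *Tie2-cko*. With each cell thinned to 5000 UMIs, 45 of 47 members were negative in EdCs (median -0.21) and 32 of 47 positive in atrial CMs (median 0.06), and at a cut of 40 the atrial share difference was 0.93 points, with overlap.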

How the results depend on the processing

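No paired analysis was possible because the labels give the control and *Tie2-cko* libraries no replicate number in common and do not say which control goes with which *Tie2-cko* library. The term for libraries 5 and 6 is a grouping known from earlier results of these data, not a pairing from the labels. With a term for libraries 5 and 6 against 7 and 8, 6 members were lower in *Tie2-cko* EdCs, 3 in chamber and 1 in cushion EdCs, and 3 higher in atrioventricular canal CMs, beside 400 of 12692, 378 of 11631 and 67 of 11339 genes lower and 129 of 11856 higher. The EdC share difference was -9.07 points at a cut of 15, -1.83 at 40, -2.54 with 2500 UMIs, -2.56 unthinned, -5.28 with the core list, -3.04 with the stricter filter and -1.21 at resolution 0.4. At cuts of 15 and 40 the differences were 10.49 and -2.71 points for CMs against EdCs, 11.5 and -0.50 for chamber against cushion EdCs (-1.51 at resolution 0.4), -18.9 and 0.37 for trabecular against low-*Nppa* CMs, -35.8 and -10.2 for the atrioventricular canal, -30.9 and -2.57 for the outflow tract, and -26.1 and 3.17 for the sinus venosus. The core list gave -19.7 in the outflow tract and -15.5 in the sinus venosus, the stricter filter -19.99 in the outflow tract and -5.03 in trabecular CMs, histone genes left out -5.22 in trabecular CMs and -20.1 in the canal, and cell cycle genes kept -54.0 in trabecular CMs. The causes were not tested.

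For chamber against cushion EdCs, 20 (DESeq2) and 13 (thinned) members were higher, and 0 (DESeq2, no filter, thinned) or 2 (histone genes out) lower. Trabecular CMs had 1 (thinned) or 5 (histone genes out) higher and 22 lower (thinned), and atrial CMs 1 higher (no filter, thinned) and 9 lower (thinned). Unless stated above, the numbers of all genes called in these fits are not given here. The same holds for the fits between types with 1 library left out. The interaction had 2 lower with no filter (83 of 23004 genes). With 1 library left out, the counts ran from 0 to 1 lower in chamber EdCs (0 without control 7), 0 to 1 higher in trabecular CMs (1 without *Tie2-cko* 8), 1 to 4 higher in atrial CMs (1 without control 5 or *Tie2-cko* 8) and 0 to 10 lower in the interaction (10 without *Tie2-cko* 8). The alternative without histone genes and the comparisons of the canal, outflow tract and sinus venosus were chosen after seeing the data, and sinus venosus values are not given at resolution 0.4, with cell cycle genes kept or without histone genes. Among single genes, *Smc4* was at -0.036 (CMs against EdCs), *Hjurp* at 0.057 (trabecular) and *Gtse1* at 0.41 (atrial) with thinned cells. In trabecular CMs, with histone genes left out, *Anln* was at 0.13, *Cenpe* 0.17, *Cenpf* -0.13, *Kif20b* 0.13, *Lbr* 0.030, *Mki67* 0.20, *Rangap1* 0.022 and *Top2a* 0.066, and with cell cycle genes kept *Cenpf* was at -2.15, *Ckap5* -1.33 and *Nek2* -2.64. With 2 hearts of each genotype no exact test of a share can pass 0.05.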

Other observations

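In atrioventricular canal CMs the 43 tested S phase genes all had positive log2 fold changes between genotypes, with a median of 0.60 (0.07 to 1.43), although none was called. The thinned S phase sums of 5000 UMIs were 5.22 in control 5, 4.17 in control 7, 7.27 in *Tie2-cko* 6 and 5.23 in *Tie2-cko* 8, and the lower *Tie2-cko* value was thus only just above the higher control. The share of canal CMs in the mitotic range was -0.03 points apart between genotypes. The members in these cells had a median of 0.19, which was 0.04 with thinned cells, and 4 of them had an unadjusted p under 0.05 in edgeR (322 of 11856 genes did). This was seen after the values were known, and no explanation was tested.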
